A study of Tigriopus californicus with 32 samples.

Results

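The gene TCALIF_04721 of the tidepool copepod Tigriopus californicus is described as a lactoylglutathione lyase, also known as glyoxalase I. It is 1 gene of 21556 that are listed in any of 12 tables of gene expression, and it was chosen by its measured levels across the groups of the study and its change between rearing regimes. It was put forward as a gene whose regime response is opposite in southern and northern populations. The values fit that description in 3 of the 4 populations only. The southern population BR-S moved in the same direction as both northern populations, though by less than either. Its change was small in 1 pair of libraries, but libraries were paired by column name only and no pairing of animals is known. The gene is therefore called by its identifier here.

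The libraries are RNA-seq of the southern populations SD-S, from San Diego, and BR-S, from Bird Rock, and of the northern populations SC-N, from Santa Cruz, and BB-N, from Bodega Bay. Copepods reared at a nonvariable 20° were taken either directly at 20° (20NV) or 2 h into 28° (28ST). Copepods reared in a variable regime, with 12 h at 20° and 12 h at 28° each day, were sampled when the 20° portion ended (20V) or 2 h into 28° (28V). Every library came from 1 pool of 100 adults, 50 males and 50 females, of wild-collected populations kept in mass culture, with 2 pools for each of the 16 groups and 32 libraries in all. With whole animals of both sexes in a pool, fewer cells that express a gene and less RNA of it per cell cannot be told apart. The p-values given here rest on 2 pools per group. The main test, limma, also draws on the spread of all genes. For 28V vs 20V in SC-N and 20V vs 20NV in SD-S it used that spread alone, fitted by expression level. The SEs and calls there do not reflect how far a gene's own pools differ.

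Glyoxalase I acts on methylglyoxal, a reactive aldehyde that forms as a by-product of glycolysis and that damages proteins and DNA. Methylglyoxal first joins with glutathione, and glyoxalase I converts this adduct to S-lactoylglutathione. Glyoxalase II then releases lactate and frees the glutathione. The pathway is known as the main route by which animal cells clear methylglyoxal, and it draws on the same glutathione as the glutathione S-transferases and glutathione peroxidases.

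The value of a gene in a library is its count of uniquely mapped reads scaled to the TMM-adjusted library size, in the usual unit of cpm. Reads summed over the genes that the tables hold lay between 3648948 and 14509087 per library. In 16 of 16 groups the library whose column name ends in suffix b held more of these reads than the one with suffix a. The heat-shock protein 70 gene TCALIF_06728, a chaperone gene that heat induces, checked the temperature labels, and it was higher at 28° in both suffixes under both regimes in all 4 populations. Its log2 fold change for 28ST vs 20NV lay between 4.18 in BR-S and 7.83 in BB-N. The 5 vitellogenin genes, which code for yolk precursors made by reproducing females, gave a summed value between 335 and 25426 cpm without Contig6667_8147. The lowest sum was that of the suffix a library of SC-N 28V, and the other SC-N libraries held between 2016 and 13793 cpm, so changes of TCALIF_04721 and calls that rest on this library are given with and without it.

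TCALIF_04721 was listed in 11 of the 12 tables, which gave a value for 15 of the 16 groups and 30 of the 32 libraries. It was not listed in the table of 28V vs 20V in SD-S. The authors kept a gene only when 2 or more of a table's 4 libraries reached 2 cpm, and both SD-S 20V libraries were below this. Behind the 30 values were between 4 and 432 reads, with a median of 55.5, so that counting error alone was wide in the lowest libraries. Intervals given below are 95% Clopper-Pearson intervals, and they cover counting error only.

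In SD-S the value was high in the nonvariable regime and low in the variable regime. The 20NV libraries had 43.0 cpm (255 reads, interval 37.9 to 48.6) in suffix a and 11.8 cpm (125 reads, interval 9.84 to 14.1) in suffix b. After 2 h at 28° the values were 10.5 and 2.93 cpm, from 77 and 31 reads. The 20V libraries had 0.873 cpm (6 reads, interval 0.320 to 1.90) and 0.771 cpm (8 reads, interval 0.333 to 1.52). Both 20V libraries were below every other SD-S library with a value.

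In BR-S all 8 libraries stayed within a narrower band, between 2.71 and 14.7 cpm. The 20NV libraries had 6.25 and 2.72 cpm, from 28 and 37 reads, and the 28ST libraries 2.71 and 14.7 cpm, from 21 and 218 reads. The 20V libraries had 7.85 and 12.6 cpm, from 28 and 111 reads, and the 28V libraries 4.76 and 9.77 cpm, from 25 and 140 reads. The 20V libraries were both above the 20NV libraries, and the 28ST libraries lay on both sides of them. In suffix a the counting intervals of 20NV (4.16 to 9.04) and 20V (5.21 to 11.3) overlapped.

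In SC-N the order of the regimes was opposite to that in SD-S. The 20NV libraries had 0.695 cpm (4 reads, interval 0.189 to 1.78) and 3.33 cpm (34 reads). The 28ST libraries had 9.18 and 6.86 cpm, from 43 and 42 reads. The 20V libraries had 92.0 cpm (432 reads, interval 83.5 to 101) and 35.5 cpm (355 reads), the first of which was the highest value of any library. The 28V libraries had 19.8 and 22.4 cpm, from 120 and 309 reads, and lay between the 28ST and the 20V libraries.

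In BB-N the 20V libraries were also the highest at 20°, but the 28ST libraries were far apart. The 20NV libraries had 5.83 and 2.79 cpm, from 32 and 29 reads. The 28ST libraries had 4.39 cpm from 15 reads and 37.4 cpm from 285 reads. The 20V libraries had 76.3 and 16.7 cpm, from 374 and 172 reads, and the 28V libraries 11.6 and 10.9 cpm, from 68 and 96 reads. The suffix b library of 28ST was above the suffix b library of 20V.

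**Figure D1:**
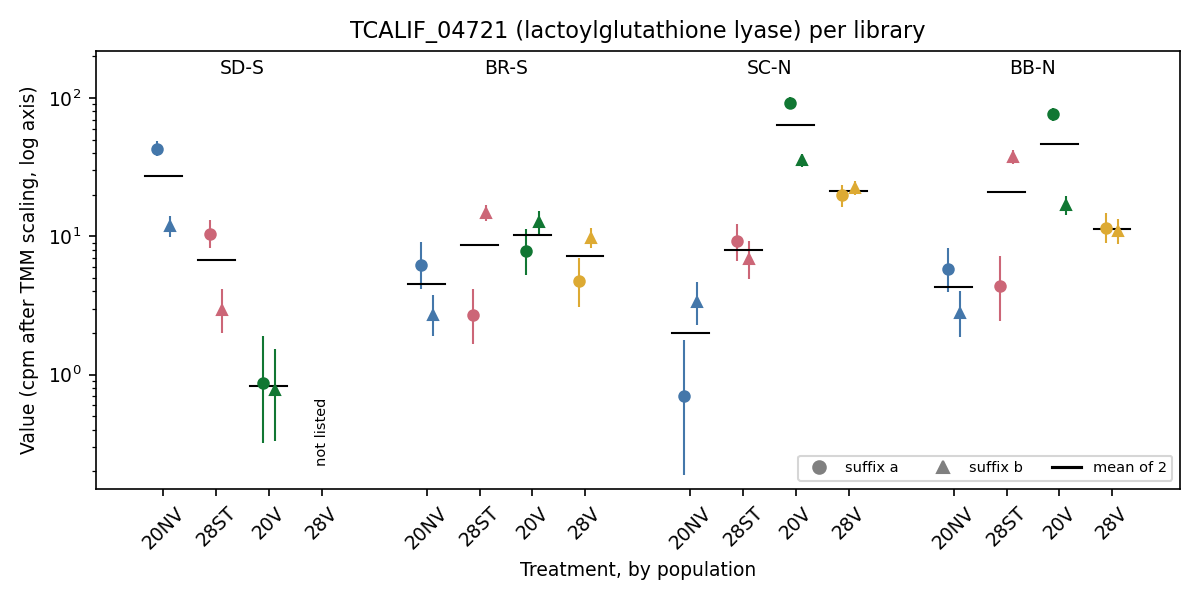
Values of TCALIF_04721 (cpm after TMM scaling, log axis) in each library by population and treatment, with suffix a as circles, suffix b as triangles, bars for the 95% Clopper-Pearson intervals of counting error, and a line at the mean of 2 libraries. The 2 SD-S 20V libraries, at 0.873 and 0.771 cpm, lie lowest within SD-S, whereas the SC-N and BB-N 20V libraries, up to 92.0 cpm, hold the highest mean of their population.

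Ordered by the mean of 2 libraries, the levels ran from 63.7 ± 40.0 cpm (SD, n = 2) in SC-N 20V down to 0.822 ± 0.0719 cpm in SD-S 20V, a ratio of 77.5. Between them came BB-N 20V at 46.5 ± 42.1, SD-S 20NV at 27.4 ± 22.1, SC-N 28V at 21.1 ± 1.84 and BB-N 28ST at 20.9 ± 23.3 cpm. The middle of the order held BB-N 28V at 11.2 ± 0.456, BR-S 20V at 10.2 ± 3.38, BR-S 28ST at 8.71 ± 8.48, SC-N 28ST at 8.02 ± 1.65 and BR-S 28V at 7.27 ± 3.54 cpm. Below these lay SD-S 28ST at 6.70 ± 5.33, BR-S 20NV at 4.49 ± 2.50, BB-N 20NV at 4.31 ± 2.15 and SC-N 20NV at 2.01 ± 1.86 cpm. The ranges of neighbours overlapped in 14 of 14 steps of this order, so no step from a group to the next was larger than the spread between pools. Since each table was scaled on its own, levels across tables and populations are approximate. A joint TMM scaling of all 32 libraries moved only BR-S 20V and BB-N 28V, which traded places.

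The pools of a group often differed in this gene by more than counting error. The fold between the 2 libraries of a group lay between 1.06 in BB-N 28V and 8.51 in BB-N 28ST, with a median of 2.30, and it was over 2 in 10 of 15 groups. The counting intervals of the 2 libraries did not overlap in 9 of 15 groups. Suffix a was higher in 9 groups and suffix b in 6. In 20V and 20NV of SD-S and BB-N suffix a was higher each time, although suffix b held more reads in every group.

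The comparison of 20V with 20NV asks how rearing in daily cycles changed expression when animals of both regimes were at 20°. This is the response for which the gene was chosen, so the values are a description and no test is given. Fold changes are on the scale of log2(value + 1), on which changes of low values are understated. In SD-S the log2 fold change was -3.71 (SE 0.39), with -4.55 in suffix a and -2.86 in suffix b, and the mean of 20NV was 33.3 times that of 20V. In BR-S it was 1.08 (SE 0.44), with 0.29 in suffix a and 1.87 in suffix b, and the mean of 20V was 2.28 times that of 20NV. In SC-N it was 4.43 (SE 0.69), with 5.78 and 3.08, a ratio of means of 31.7. In BB-N it was 2.86 (SE 0.32), with 3.50 and 2.23, a ratio of means of 10.8.

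The 20V and 20NV libraries did not overlap in any of the populations. Among all genes tested, the 20V and 20NV libraries did not overlap, in either direction, for 23.2% of genes in SD-S, 33.6% of those in BR-S, 61.1% of those in SC-N and 41.9% of those in BB-N. Of 14478 genes in all 4 tables of this comparison, 1 gene (0.00691%), TCALIF_04721 itself, had its signs in all 4 populations with at least a 2-fold change in each, a limit that BR-S, at 2.11-fold, just clears. These shares are background to the values that chose the gene, and nothing is read from them.

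With Contig6667_8147 left out, vitellogenin sums moved with the gene in SD-S and against it in SC-N. They overlapped between the regimes in the other populations. That transcript was singled out after its values were seen. With it included, the SC-N sums overlapped too, at 12279 and 142350 cpm in 20NV and 9438 and 50844 cpm in 20V. Without Contig6667_8147, the vitellogenin sum in SD-S was 20520 and 25426 cpm in 20NV and 15908 and 17680 cpm in 20V, lower in 20V as TCALIF_04721 was. In SC-N it was 11237 and 13793 cpm in 20NV and 8122 and 2016 cpm in 20V, lower in 20V where TCALIF_04721 was higher. In BB-N the sums of 20NV (16337 and 9480 cpm) and 20V (9825 and 20421 cpm) overlapped, and in BR-S those of 20NV (4060 and 2008 cpm) and 20V (3935 and 8487 cpm) overlapped too. Their part in the result was not tested.

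**Figure D2:**
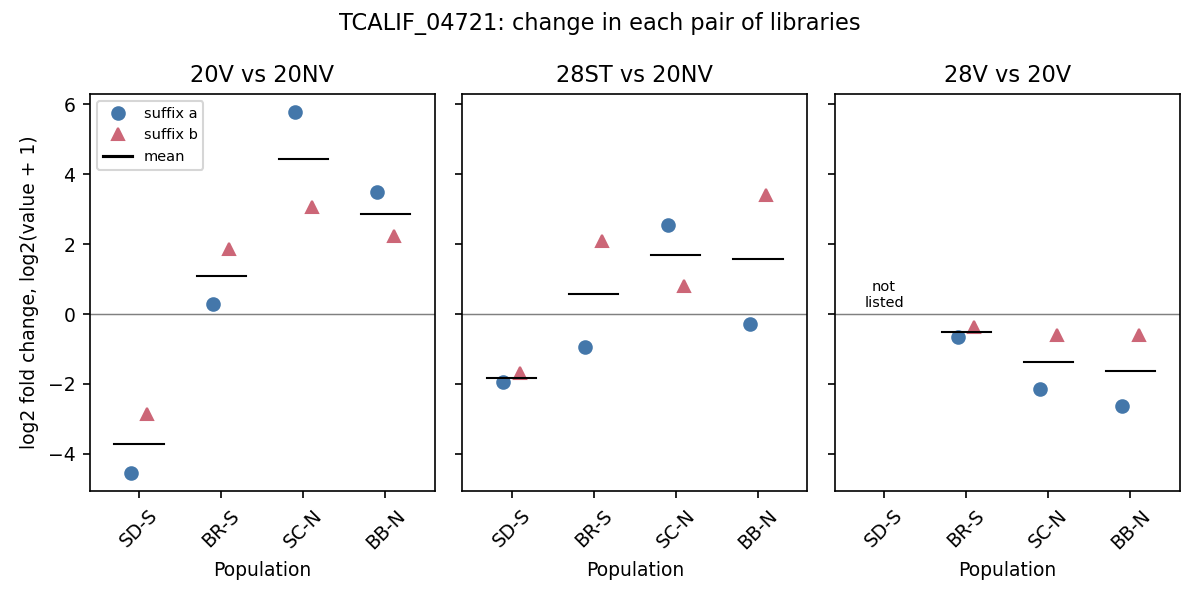
Log2 fold changes of TCALIF_04721 on the scale of log2(value + 1) for 20V vs 20NV, 28ST vs 20NV and 28V vs 20V in each population, with suffix a as circles, suffix b as triangles and a line at their mean. For 20V vs 20NV only SD-S lies below 0, at -3.71, and for 28V vs 20V all 3 populations with a value lie below 0 in both suffixes.

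The comparison of 28ST with 20NV asks how 2 h at 28° changed expression in animals reared at a constant 20°, and it shares the 20NV libraries with the comparison of regimes. Because the levels of these libraries were among the values that chose the gene, its p-values here are not independent of the choice. No population passed the test for TCALIF_04721. In SD-S the value was lower at 28° in both suffixes, with a log2 fold change of -1.82 (SE 0.22, limma adjusted p = 0.224). In suffix a it went from 43.2 to 10.5 cpm and in suffix b from 11.6 to 2.93 cpm, a change of -1.95 and -1.69, and the groups did not overlap, as for 9.73% of all genes in this direction. Called genes were 0.028% of those tested in this table. The edgeR likelihood ratio test (-2.02, adjusted p = 0.000128) and DESeq2 (-2.01, adjusted p = 0.00252) put the same change past the threshold. In limma it passed without the suffix a library of 28ST, at -2.59 (adjusted p = 0.0125). Here and below, limma fits without a library also leave out the suffix as a block.

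In SC-N the value was higher at 28° in both suffixes, from 0.729 to 9.18 cpm and from 3.49 to 6.86 cpm, with a log2 fold change of 1.68 (SE 0.51, limma adjusted p = 1.00). The groups did not overlap, as for 14% of all genes in this direction, and 0.0222% of genes were called. Without the suffix b library of 20NV the change in SC-N was 2.37 and passed (limma adjusted p = 0.00713). In BR-S the log2 fold change was 0.57 (SE 0.65, limma adjusted p = 0.938), with -0.95 in suffix a and 2.10 in suffix b, and 0.12% of genes were called. In BB-N it was 1.56 (SE 0.79, limma adjusted p = 0.740), with -0.27 in suffix a and 3.40 in suffix b, and 0.327% of genes were called. The groups overlapped in BR-S and BB-N, and without the suffix b library of BR-S 28ST the change there was -0.47.

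The difference between populations in this response was tested for 6 pairs, and none passed in limma. The levels of the unheated libraries, from which each response is measured, were among the values that chose the gene. The p-values and intervals of these pairs are therefore no independent evidence of a difference. SD-S minus SC-N was -3.50 on the log2 scale (SE 0.62, 95% interval -5.05 to -1.95, limma adjusted p = 1.00). The edgeR likelihood ratio test put this difference at -4.04 with an adjusted p of 0.0247, which passed. SD-S minus BB-N was -3.38 (interval -6.14 to -0.62, limma adjusted p = 1.00) and SD-S minus BR-S was -2.39 (interval -4.78 to 5.0e-05, limma adjusted p = 1.00). The intervals of the other pairs were wide on both sides of 0, from -3.89 to 1.67 for BR-S minus SC-N, from -4.51 to 2.53 for BR-S minus BB-N and from -3.09 to 3.33 for SC-N minus BB-N. They do not show that these populations responded alike.

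The comparison of 28V with 20V asks how the daily rise to 28° changed expression in animals reared in the variable regime, and it shares the 20V libraries with the comparison of regimes. The 20V levels were among the values that chose the gene, so the p-values of TCALIF_04721 describe this contrast and are no independent evidence of a change. TCALIF_04721 was lower in 28V in both suffixes in all 3 populations with a value, and its adjusted p was under the threshold in SC-N only. There the value went from 90.4 to 19.8 cpm in suffix a and from 34.8 to 22.4 cpm in suffix b, a log2 fold change of -1.37 (SE 0.40, limma adjusted p = 0.0322), with -2.13 and -0.61 in the suffixes. The SE of 0.40 comes from the spread fitted over all genes and not from the distance between these suffixes. The groups did not overlap, as for 17% of all genes in this direction, and 2.04% of genes were called. Without the suffix as a block the adjusted p was 0.935, and without the suffix a library of 28V, which stood apart in its vitellogenin sum, the change was -1.29 (limma adjusted p = 1.00). The change was -1.46 (limma adjusted p = 0.164) without the suffix b library of 28V, -0.70 (1.00) without the suffix a library of 20V and -2.05 (0.671) without the suffix b library of 20V. Since leaving out the block alone ended the call, its loss in these fits cannot be put down to a library.

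In BB-N the value went from 77.2 to 11.6 cpm in suffix a and from 17.1 to 10.9 cpm in suffix b, a log2 fold change of -1.62 (SE 0.50, limma adjusted p = 0.416). The groups did not overlap, as for 17.5% of all genes in this direction, and 0.827% of genes were called. Without the suffix b library of 20V the change was -2.68 (limma adjusted p = 0.00991), and without the suffix a library of 20V it was -0.56 (limma adjusted p = 0.999). In BR-S the value went from 8.05 to 4.76 cpm and from 12.9 to 9.77 cpm, a log2 fold change of -0.51 (SE 0.26, limma adjusted p = 0.943). The groups overlapped, and 0.188% of genes were called. In SD-S, where the gene has no value, limma called 0 genes (0%), with 761 genes at an unadjusted p under 0.05, while the edgeR likelihood ratio test called 119 and DESeq2 53.

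The response in the variable regime was compared in 3 pairs of populations, and none passed in limma. BR-S minus SC-N was 0.86 on the log2 scale (interval -0.43 to 2.16, adjusted p = 0.917). BR-S minus BB-N was 1.11 (interval -0.50 to 2.72, adjusted p = 0.999). SC-N minus BB-N was 0.25 (interval -1.87 to 2.37, adjusted p = 0.930), so that a difference of either sign was within the error. Without the suffix a library of SC-N 28V, a fit chosen after its vitellogenin sum was seen, BR-S minus SC-N was 0.78 (adjusted p = 1.00) and SC-N minus BB-N was 0.33 (adjusted p = 1.00). Over all genes limma called 0 in each of these 9 pairs of populations for the 2 temperature comparisons, with between 194 and 659 genes at an unadjusted p under 0.05, whereas the edgeR likelihood ratio test called between 3 and 146.

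Between the regimes at 28° the values were set side by side after joint scaling of the 8 libraries of a population, again with no test. In SC-N both 28V libraries, at 20.4 and 23.5 cpm, were above both 28ST libraries, at 8.91 and 6.51 cpm, a mean log2 difference of 1.41, with 1.11 in suffix a and 1.70 in suffix b, the pair that does not hold the suffix a library of 28V. In BR-S the 28ST libraries had 2.76 and 15.2 cpm and the 28V libraries 4.70 and 9.66 cpm, so that suffix a differed by 0.60 and suffix b by -0.60. In BB-N the 28ST libraries had 4.58 and 38.8 cpm and the 28V libraries 11.2 and 10.7 cpm, with 1.13 in suffix a and -1.77 in suffix b. The regimes thus overlapped at 28° in BR-S and BB-N, where they had not overlapped at 20°. The separation at 20° is the response for which the gene was chosen, so nothing is read from its being weaker at 28°. How many of all genes separate or overlap in this way at 28° was not counted.

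Another 3 genes carry a description as lactoylglutathione lyase or a glyoxalase I-like protein. For 20V vs 20NV none had the signs of TCALIF_04721 in all populations where it was listed, though some signs were shared. The lists of genes used here come from descriptions that cover only some of the genes and favour those with large changes, so their counts describe the listed genes only. TCALIF_06911 had 29.4 and 35.8 cpm in SC-N 20NV and 1.28 and 2.30 cpm in SC-N 20V. It fell by 3.61 on the log2 scale there (SE 0.22, limma adjusted p = 0.0490), where TCALIF_04721 was higher in 20V. In this comparison limma called 0.136% of all genes, while the edgeR likelihood ratio test called 2465 of 18326 and DESeq2 called 932. The adjusted p of TCALIF_06911 lay just under the threshold. It was 0.0369 without the block and 4.9e-21 in the edgeR likelihood ratio test, and it missed at 0.0617 in the edgeR quasi-likelihood test. It also missed without the suffix a library of 20NV (limma adjusted p = 0.143), of 20V (0.0903) or the suffix b library of 20V (0.0658).

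In BB-N TCALIF_06911 had 16.2 and 10.9 cpm in 20NV and 1.84 and 4.77 cpm in 20V, a log2 fold change of -1.82 (SE 0.38, limma adjusted p = 0.0638), in a comparison in which 2.48% of genes were called. In SD-S it had 16.4 and 5.58 cpm in 20NV and 5.67 and 4.72 cpm in 20V, with a change of -0.79 (SE 0.39, limma adjusted p = 0.799), in a comparison where 1.9% of genes were called. In BR-S it had 0.894 and 2.13 cpm in 20NV and 2.52 and 1.25 cpm in 20V, so that the groups overlapped. The gene was thus below 3 cpm in BR-S at 20°, and it was not listed in either temperature table of that population.

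Contig1802_1801, a de novo transcript with the same description as TCALIF_06911, had 3.82 and 4.21 cpm in SC-N 20NV and 0.213 and 0.0999 cpm in SC-N 20V. Its log2 fold change was -2.12 (SE 0.30, limma adjusted p = 0.0637). In BB-N it had 2.55 and 2.69 cpm in 20NV and 0 and 1.27 cpm in 20V, with a change of -1.27 (SE 0.36, limma adjusted p = 0.160). It was not listed in the tables of 20V vs 20NV in the southern populations. Whether Contig1802_1801 and TCALIF_06911 stem from the same or near-identical gene copies is not known from the files. Reads were mapped to the genomic transcripts first and only the rest to the de novo transcripts, so a read that fits both would count for TCALIF_06911.

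TCALIF_10540 passed the test in none of the tables. Its values lay between 2.31 cpm in suffix a of SC-N 28V and 15.2 cpm in suffix b of the same group, and its log2 fold change for 20V vs 20NV was 0.85 in SC-N (SE 0.27, limma adjusted p = 0.131) and between -0.31 and -0.13 in the other populations. For 28ST vs 20NV it lay between 0.10 and 0.40, with 1.36 in suffix a and -0.74 in suffix b of SC-N. For 28V vs 20V it lay between -0.69 in SC-N and 0.50 in SD-S, and without the suffix a library of 28V it was 0.45 in SC-N. For 28ST vs 20NV TCALIF_06911 went the other way from TCALIF_04721 in both SD-S (1.17, SE 0.37, limma adjusted p = 0.923) and SC-N (-0.48, SE 0.19, limma adjusted p = 1.00), and neither passed.

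**Figure D3:**
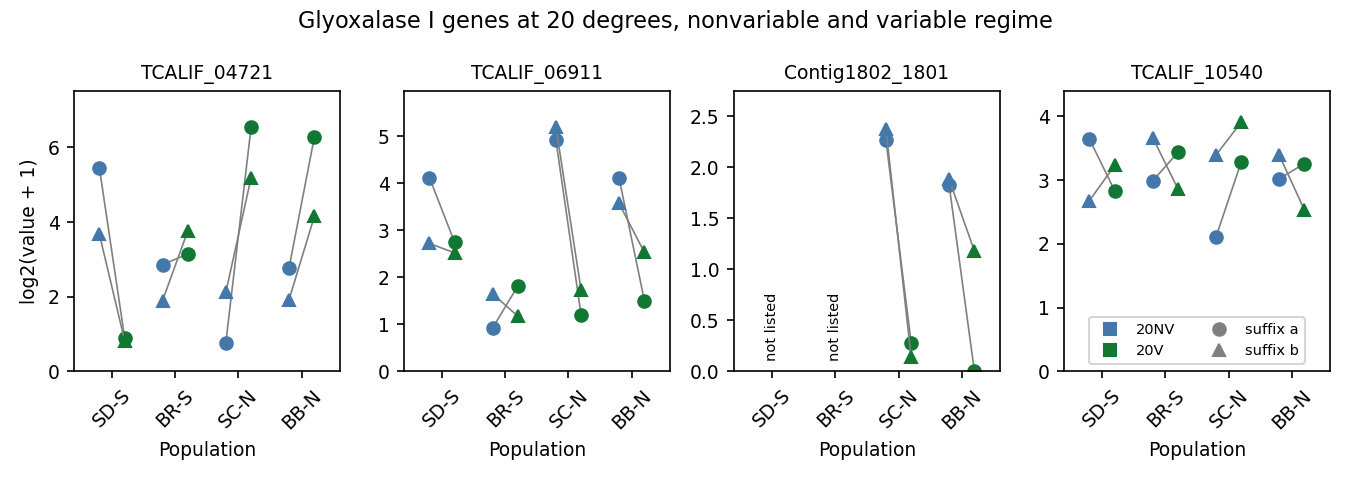
Values of TCALIF_04721 and of the 3 other glyoxalase I genes, as log2(value + 1), in the 20NV (blue) and 20V (green) libraries of each population, with lines joining libraries of the same suffix (circles a, triangles b) and a separate vertical scale for each gene. In SC-N and BB-N the lines of TCALIF_04721 go up, those of TCALIF_06911 and Contig1802_1801 go down, and in SC-N the change of TCALIF_06911 is -3.61.

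The other listed genes of glutathione use, antioxidant defence and aldehyde or glycolytic metabolism were called in some tables of each kind but 28ST vs 20NV. Together with the 3 glyoxalase I genes they were 23 genes, which gave 238 fits over the 12 tables and 7 calls in 6 genes. This was 2.94% of their fits, beside 0.676% of the fits of all genes, on lists that favour genes with large changes. For 28ST vs 20NV limma called 0 of 21 listed genes in SD-S and 0 of 19 in each of the other populations. For 28V vs 20V it called 2 of 21 in SC-N, beside 2.04% of all genes, while SD-S had 0 of 20, BR-S 0 of 20 and BB-N 0 of 17. For 20V vs 20NV its calls were 3 of 20 listed genes in SD-S (1.9% of all genes), 1 of 22 for SC-N (0.136%), 1 of 19 for BB-N (2.48%) and 0 of 21 for BR-S. In BR-S limma called 0 of all genes (0%) in this comparison, with 567 at an unadjusted p under 0.05, and the edgeR likelihood ratio test called 79 and DESeq2 19.

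Of the 9 glutathione enzymes, the glutathione S-transferases, which attach glutathione to reactive compounds, held the calls. In SD-S, TCALIF_10068 (glutathione S-transferase d2) had 60.9 and 49.0 cpm in 20NV and 114 and 136 cpm in 20V, and rose by 1.17 (SE 0.28, limma adjusted p = 0.00187) where TCALIF_04721 was lower. Its adjusted p was 0.162 without the block, 0.0733 without the suffix b library of 20NV, and 0.584 and 1.00 without the suffix a or b library of 20V. TCALIF_08165 had 81.6 and 24.8 cpm in SD-S 20NV and 77.7 and 102 cpm in SD-S 20V, a change of 0.96 (SE 0.28, limma adjusted p = 0.0376) that rested on suffix b, at 1.99, with -0.07 in suffix a. Without the suffix b library of 20NV this was 0.12 (limma adjusted p = 0.869), and without either library of 20V its adjusted p was 1.00.

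In BB-N the glutathione S-transferase TCALIF_02700 had 24.4 and 22.9 cpm in 20NV and 5.71 and 9.83 cpm in 20V, and fell by 1.53 (SE 0.25, limma adjusted p = 0.0301) where TCALIF_04721 was higher. Its adjusted p was 0.129 without the block and between 0.0746 and 0.271 when any of the 4 libraries was left out. For 28ST vs 20NV the largest change of any listed gene was that of TCALIF_08165 in SC-N, from 24.3 and 29.4 cpm to 56.8 and 88.0 cpm, a log2 fold change of 1.30 (SE 0.17, limma adjusted p = 0.523). The median log2 fold change of the glutathione enzymes tested for 20V vs 20NV was 0.53 in SD-S, 0.49 in SC-N, -0.05 in BB-N and, lowest, -0.26 in BR-S, beside medians of all genes between -0.00318 and 0.0283.

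Among the 8 antioxidant genes, the superoxide dismutase TCALIF_03987, whose enzyme turns superoxide into hydrogen peroxide, held 2 of the 3 calls. In SC-N it had 19.5 and 37.5 cpm in 20NV and 176 and 164 cpm in 20V, a log2 fold change of 2.61 (SE 0.28, limma adjusted p = 0.0637). From 20V to 28V in SC-N it fell by 1.80 (SE 0.40, limma adjusted p = 0.000967), to 20.1 cpm in suffix a and 108 cpm in suffix b. Without the suffix a library of 28V this change was -0.62 (limma adjusted p = 1.00), and its adjusted p was 0.935 without the block and 1.00 without either library of 20V. TCALIF_04721 had the same signs in both of these comparisons in SC-N. In SD-S the gene TCALIF_03987 had 57.0 and 28.7 cpm in 20NV and 89.1 and 110 cpm in 20V, and rose by 1.27 (SE 0.28, limma adjusted p = 0.000781), where TCALIF_04721 was lower. Its adjusted p there was 0.472 without the block, 0.191 without the suffix b library of 20NV, and 0.425 and 1.00 without the suffix a or b library of 20V.

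The superoxide dismutase transcript comp35034_c0_seq2_19934 had 7.67 and 14.7 cpm in SC-N 20V and 0.495 and 7.62 cpm in SC-N 28V, and fell by 1.67 (SE 0.47, limma adjusted p = 0.0215). Without the suffix a library of 28V its change was -0.41 (limma adjusted p = 1.00), and its adjusted p was 0.935 without the block and 1.00 without either library of 20V. In SC-N the median of the 8 antioxidant genes was 1.47 for 20V vs 20NV, with 7 of 8 above 0, and -1.11 for 28V vs 20V, with 6 of 8 below 0. Without the suffix a library of 28V the latter median was -0.39, with 5 of 8 below 0. In BB-N the medians of the 5 tested were 0.20 and 0.09. The 3 other aldehyde and glycolysis genes, an aldehyde dehydrogenase, a DJ-1-like gene and glyceraldehyde 3-phosphate dehydrogenase, were called in none of the tables by limma, and their median for 20V vs 20NV was 1.20 for SC-N, -0.57 for SD-S, -0.35 for BB-N and -0.11 for BR-S.

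The genes most like TCALIF_04721 over the 30 libraries were looked for by the Pearson correlation of log2(value + 1), centred within each population, among 12992 genes that have a value in every one of these libraries. The libraries share their pools and lanes, and the correlations are given as a description. The highest were comp37147_c0_seq1_21693 at 0.66, then TCALIF_03482, TCALIF_11334, TCALIF_13039 and comp46203_c0_seq1_32731, each at 0.65. The lowest correlation of any gene was -0.66 and the median -0.04, and that of TCALIF_10540 was 0.24. Of these genes only TCALIF_13039 has a description at hand, as an n-acylglucosamine 2-epimerase, an enzyme of amino sugar metabolism. The same ranking by Spearman's rho shared 2 of these 5 genes and that without centring 1.

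For 20V vs 20NV, TCALIF_13039 had a log2 fold change of 2.37 in SC-N and 1.18 in BB-N against 0.13 for BR-S and -0.34 for SD-S, and comp37147_c0_seq1_21693 had 1.35, 1.49, 0.25 and -0.60. Both genes were picked for their likeness to TCALIF_04721 over libraries that include those of 20V and 20NV, so no test of these changes is given. TCALIF_13039 departed from TCALIF_04721 for 28V vs 20V in SC-N, at 1.01 against -1.37.

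**Figure D4:**
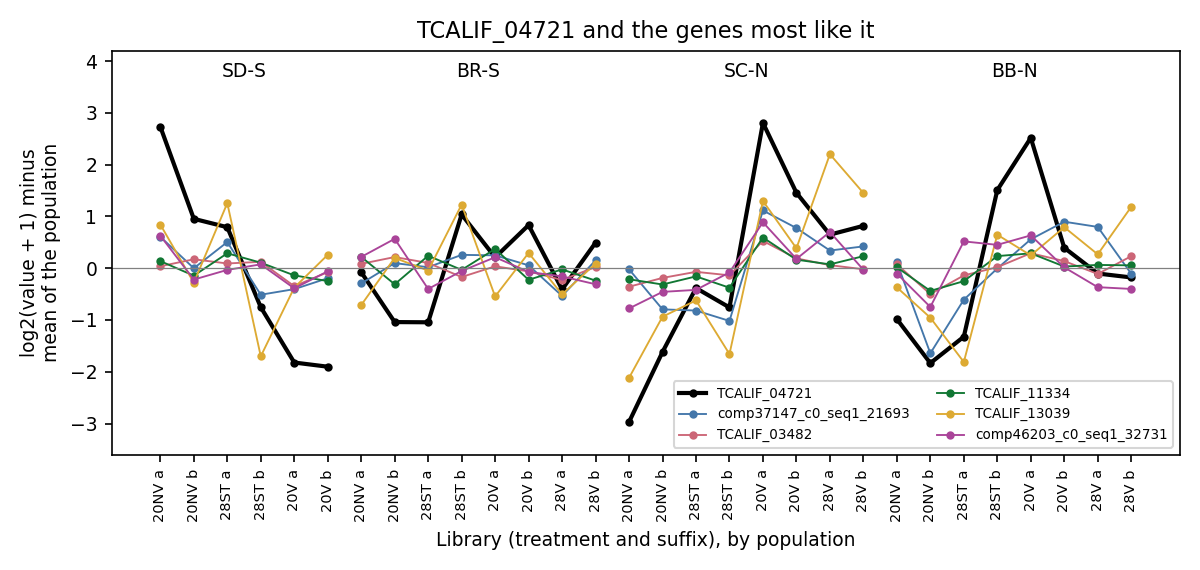
Log2(value + 1) of TCALIF_04721 (black) and of the 5 genes most like it, minus the mean of each gene within its population, in the 30 libraries with a value. Lines join libraries within a population to guide the eye, TCALIF_04721 has the widest range in each population's 20NV and 20V libraries, and the correlations lie between 0.65 and 0.66.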

How the data were processed

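As the methods of the study describe, the authors trimmed the 100-bp single-end unstranded reads, mapped them to genomic and then de novo transcripts, kept unique reads, kept genes that reached 2 cpm in 2 or more of a table's 4 libraries, and scaled with TMM in edgeR. The deposited signal of each library is a count of reads in cpm of the TMM-scaled library size. Each of 12 tables holds a population and comparison. Their fold changes, p-values and FDR, made by the authors, were not used, nor were 4 further columns that repeat libraries.

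Reads were recovered from the 48 columns used, with 100% of values above 0 within 0.01 reads of a whole number (largest deviation 5.95e-05). The column-name suffix, which neither the labels nor the methods match to replicate numbers, took the place of the lane, by which the authors blocked. Lanes held 2 populations each. In the study's supplementary read counts the higher-numbered replicate has more mapped reads in every group, as suffix b has here. The block is a stand-in and no pairing of animals is known.

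Values were fitted as log2(value + 1) in R 4.3.3 with limma 3.58.1 (variance trend, block, 2-sided, Benjamini-Hochberg over all genes of a table, 0.05), and population differences as an interaction on genes of both tables. edgeR 4.0.16 and DESeq2 1.42.0 on recovered reads, 2 smaller pseudocounts, no trend, no block, a mean minimum of 10 cpm, other size factors and single libraries left out were alternatives. On these reads the likelihood ratio test of edgeR called between 62 and 2465 genes per table. The limma fit alone was run on simulated data, with 1 dispersion for all genes, no suffix effect and changes only in genes of higher level. That run does not show how the fit performs for a gene whose pools differ as those of TCALIF_04721 did.

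The gene, the lists, the pseudocount and the trend were chosen with earlier results of these data known. Named are TCALIF_04721, the other glyoxalase I genes, listed genes called in any table, the largest other change per comparison, TCALIF_06728, and the 5 genes most like TCALIF_04721 with a highest value of at least 10 cpm. Identifiers matched 0 entries of the reference gene list, so sequences and coordinates were not used here.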

Additional observations from a re-analysis of the deposited data

Results flagged for a closer look

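For 28ST vs 20NV the response of TCALIF_04721 was -1.82 in SD-S and 1.68 in SC-N on the log2 scale, with both pools of each group on the same side. The difference between these populations was tested, with an adjusted p of 1.00 in limma and 0.0247 in the edgeR likelihood ratio test. The 20NV levels behind it were among the values that chose the gene, so these p-values are no independent evidence of a difference.

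For 20V vs 20NV TCALIF_04721 was at -3.71 in SD-S and at 1.08 in BR-S, 2.86 for BB-N and 4.43 for SC-N, in both suffixes each time. This difference was not tested, since the gene was chosen on it.

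For 28ST vs 20NV TCALIF_06911 was at 1.17 in SD-S and at -0.48 in SC-N, in both suffixes of each. This difference was not tested.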

How the results depend on the processing

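For 28V vs 20V in SC-N the change of TCALIF_04721 kept its sign and lost its call under most alternatives, and the cause was not tested. It was -1.37 with an adjusted p of 0.935 with no replicate block and of 0.163 without a trend, -1.41 (0.0907) at a pseudocount of 0.1, -1.37 (0.0944) among genes of at least 10 cpm, -1.40 in both the likelihood ratio test (0.199) and the quasi-likelihood test (0.103) of edgeR, -1.37 (0.940) in DESeq2 and -1.34 (0.0610) with its size factors. At a pseudocount of 0.5 the call held (0.0313). Leaving out single libraries, without the block and with the lone library assumed to vary like the others, gave -2.05 to -0.70, and the call was lost each time. In SD-S 28ST vs 20NV was -2.02 in the likelihood ratio test and -2.01 in DESeq2, both past the threshold, with -2.72 to -0.91 over single libraries left out, and passed without the suffix a library of 28ST (-2.59, adjusted p = 0.0125). The same contrast gave 0.99 to 2.37 in SC-N, where it passed without the suffix b library of 20NV (2.37, adjusted p = 0.00713), -0.47 to 1.61 in BR-S, reversed at -0.47 without the suffix b library of 28ST, and 0.15 to 2.98 in BB-N. For 28V vs 20V the range was -2.68 to -0.56 in BB-N, which passed at -2.68, and -0.96 to -0.06 in BR-S. For 20V vs 20NV it was -4.59 to -2.82 in SD-S, 0.60 to 1.56 in BR-S, 3.75 to 5.10 in SC-N and 1.80 to 3.93 in BB-N, with no change of sign under any alternative run. The difference of SD-S and SC-N was -4.04 in the likelihood ratio test, which passed, on 20NV levels that were among the values that chose the gene. The BB-N 28V level was 10.7 cpm on the joint scale. Apart from SC-N 28V vs 20V, leaving out the block changed no call of TCALIF_04721. The number of genes called over the alternatives was between 0 and 377 for 28ST vs 20NV, 0 and 962 for 28V vs 20V and 0 and 2465 for 20V vs 20NV. Deviations of same-suffix libraries correlated between -0.35 (BR-S 20V vs 20NV) and 0.49 (SC-N 28V vs 20V), and a crossed block in the former, added after its value was seen, gave 75 calls against 0. With 4 to 432 reads per library and 2 pools, small changes were not detectable.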

Other observations

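The vitellogenin transcript Contig6667_8147, a yolk precursor gene singled out after its values were seen, had 128560 and 127600 cpm in the suffix b libraries of SC-N 20NV and 28ST and 1043 and 1184 cpm in the suffix a libraries. In SC-N 20V it had 48828 cpm in suffix b and 1316 cpm in suffix a, and in SC-N 28V 26321 and 50.9 cpm. In the other populations it stayed between 164 cpm in suffix b of BR-S 20NV and 4484 cpm in suffix b of SD-S 20NV. In SC-N, TCALIF_04721 was higher in suffix b in 20NV and 28V and in suffix a in 20V and 28ST.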
